A study of Bos taurus with 12 samples.

Results

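GRAMD1A (ENSBTAG00000003820 in the deposited table) encodes a cholesterol transfer protein of the endoplasmic reticulum, and it is described here with 9 other genes that move cholesterol within cells or across the plasma membrane. The members are GRAMD1A, GRAMD1B, GRAMD1C, STARD3, STARD4, NPC1, NPC2, SCARB1, ABCA1 and ABCG1, matched by symbol in a table of 18057 gene rows, in which each symbol had a single row. GRAMD1A was chosen because its level differed between the groups in an earlier look at these data, and the others were chosen by function. Of the 10 genes, 9 passed the filter on low counts, which 12311 genes passed in all. ABCG1 did not pass it.

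Cholesterol enters a cell within lipoproteins or is made in the endoplasmic reticulum, and most of it resides in the plasma membrane. In mammalian cells, NPC2 and NPC1 carry lipoprotein cholesterol out of lysosomes, and the GRAMD1 proteins, also called Asters, move accessible cholesterol from the plasma membrane to the endoplasmic reticulum at contact sites of these membranes. ABCA1 and ABCG1 export cholesterol to lipoprotein acceptors. In the mouse, the oocyte depends on the surrounding cumulus cells for cholesterol.

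The material was cattle oocytes still surrounded by cumulus cells, the granulosa cells that envelop and nourish the egg, after maturation in culture. The 6 control libraries came from complexes in control medium, and the 6 exposed libraries, named Nanoplastics 1 to 6, from complexes in medium with polystyrene nanoplastics of 50 nm at 3 µg/mL. Each library held polyadenylated RNA of 50 complexes, so a level is that of oocytes and cumulus cells together, and fewer cells of a type and less RNA per cell cannot be told apart. The samples came from 3 batches of bovine material prepared as independent replicates, and the sources used here do not tie a sample to its batch or name the animals' breed or age.

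Libraries held between 14167578 and 20008464 counts. The labelled material was checked against its markers. The filter, which 12311 of 18057 gene rows passed, was passed by 13 of 16 oocyte and 13 of 13 granulosa and cumulus markers. Summed oocyte markers ran from 905 to 1100 CPM (counts scaled to a common library total) in control and from 895 to 1125 CPM in exposed libraries. UCHL1 held most of this sum, with means of 721 CPM in control and 739 CPM in exposed libraries. The B cell marker MS4A1 was at 0 in every library, and summed leukocyte and macrophage markers ran from 5.34 to 12.4 CPM in control and from 7.07 to 19.2 CPM in exposed libraries. Control 5 stood apart on principal component 2, which held 13.2% of the variance, at 27.9 against −14.6 to 9.72 in the other 11 libraries. Nanoplastics 1 was highest on principal component 1, which held 33.7% of the variance, at 37.4 against −19.3 to 21.0.

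GRAMD1A ran from 169 CPM to 221 CPM with a median of 192 CPM in control libraries, and from 204 CPM to 242 CPM with a median of 227 CPM in exposed libraries. Each of the 6 exposed libraries exceeded the control median, and 4 of them exceeded the highest control library. The groups overlapped through Control 4 alone, since the other 5 control libraries lay below the lowest nanoplastics library. The control mean was 194 ± 17.04 CPM and the exposed mean 225 ± 15.6 CPM (SD, n = 6 each). The log2 fold change was 0.22 (SE 0.07), or 1.16-fold. It is given without a test, because this difference led to the choice of the gene. Among all tested genes, 3.32% had all 6 exposed libraries above the control median, 2.91% had all 6 below it, 6.23% had all 6 on either side, and 0.0731% had groups that did not overlap.

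With each library left out in turn, the log2 fold change of GRAMD1A ran from 0.18 without Control 5 to 0.26 without Control 4, the control libraries of lowest and highest level. It was 0.21 with the mean of the oxygen response genes described below as a covariate. Theca and stroma markers had positive log2 fold changes in 6 of 7 tested genes, and their sum ran from 487 to 683 CPM in control and from 532 to 797 CPM in exposed libraries. Of these 7, 2 collagen genes had an unadjusted p under 0.05 in edgeR's test, namely COL1A2 (log2 fold change 2.19, 95% interval 0.47 to 3.91) and COL3A1 (log2 fold change 1.06, 95% interval 0.06 to 2.07). Neither passed the adjusted threshold. Nanoplastics 1 had the highest sum of the theca and stroma markers. Their mean log2 CPM was highest in Nanoplastics 2 (4.36) and Nanoplastics 6 (4.02), against 3.17 to 3.90 in the other libraries. Without Nanoplastics 2 and 6 the log2 fold change of GRAMD1A was 0.19. It was 0.21 without Nanoplastics 1. The part of such cells in it was not tested further. In the authors' deposited table the log2 fold change of GRAMD1A was 0.21, a value from these same samples and so no independent evidence. After the group means were removed, GRAMD1A had an SD of 0.11 on the log2 CPM scale, close to the median of 0.12 for the 500 genes nearest to it in mean level. This spread is a description too, since a consistent shift was what the gene was chosen for.

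**Figure D1:**
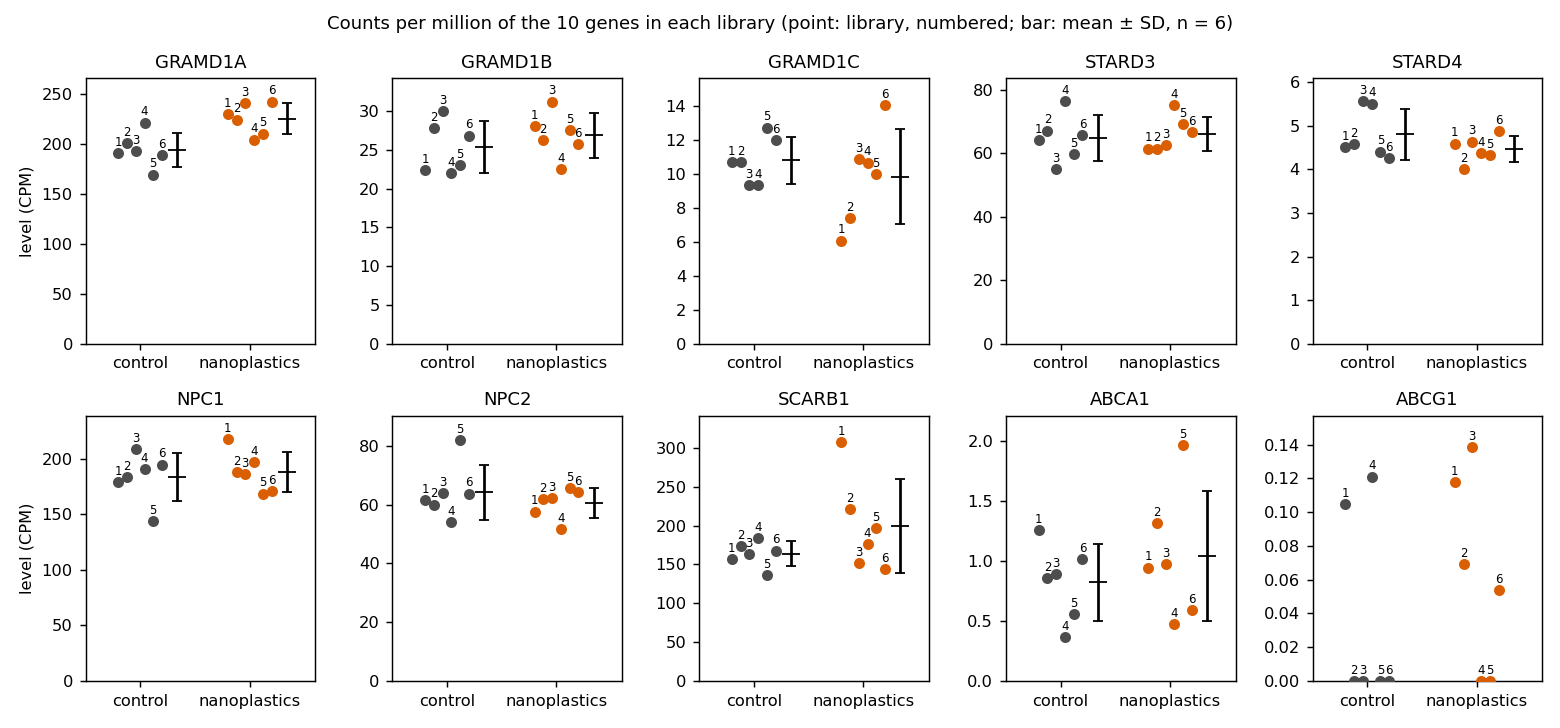
Level of each of the 10 genes in CPM (vertical axes, each from 0) in 6 control and 6 exposed libraries, numbered by replicate, with the mean ± SD beside the points (not drawn for ABCG1, which had at most 2 counts in a library). GRAMD1A lay above the control median in all 6 exposed libraries, and SCARB1 and GRAMD1C had wider SD bars in the nanoplastics group than in control.

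The question for the other members was whether they also differed after maturation with the particles. None of them passed. With Benjamini-Hochberg adjustment over all tested genes, edgeR's quasi-likelihood test called 0 of the 8 other tested members and 0% of all tested genes, and the adjusted p of each of the 8 was 0.999. None of these 8 had an unadjusted p under 0.05, against 2.10% of all tested genes (1.07% higher and 1.03% lower in exposed libraries). Of the 8, 5 leaned higher in exposed libraries and 3 lower, where 50.5% of all tested genes were positive. The median of the 9 tested members, GRAMD1A included, was 0.04, and that of all tested genes was 0.0013.

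GRAMD1B and GRAMD1C encode the close relatives of GRAMD1A. GRAMD1B ran from 22.0 CPM to 30.1 CPM with a median of 25.0 CPM in control, and from 22.5 CPM to 31.2 CPM with a median of 26.9 CPM in exposed libraries. The groups overlapped almost wholly, with a log2 fold change of 0.08 (95% interval −0.12 to 0.29). GRAMD1C ran from 9.33 CPM to 12.7 CPM with a median of 10.7 CPM in control, and from 6.07 CPM to 14.1 CPM with a median of 10.3 CPM in exposed libraries. Both the lowest levels, in Nanoplastics 1 and 2, and the highest level, in Nanoplastics 6, belonged to the nanoplastics group. Its log2 fold change was −0.13 (95% interval −0.49 to 0.23). It moved to −0.02 without Nanoplastics 1 and to −0.27 without Nanoplastics 6. The intervals of both genes included the 0.22 of GRAMD1A, and a difference in response between the paralogs was not tested.

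STARD3 and STARD4 carry cholesterol by a START domain. STARD3 sits on late endosomes and tethers them to the endoplasmic reticulum, and STARD4 is a soluble carrier that in the mouse is a target of the sterol-regulated factor SREBP2. STARD3 ran from 54.9 CPM to 76.3 CPM in control and from 61.4 CPM to 75.1 CPM in exposed libraries, with medians of 64.9 CPM and 64.5 CPM. STARD4 ran from 4.26 CPM to 5.56 CPM in control and from 4.01 CPM to 4.89 CPM in exposed libraries, with medians of 4.54 CPM and 4.49 CPM. Neither gene separated the groups. The log2 fold changes were 0.03 (95% interval −0.14 to 0.20) for STARD3 and −0.10 (−0.36 to 0.15) for STARD4.

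NPC1 is a membrane protein of late endosomes and lysosomes, and NPC2 is the soluble lysosomal protein that hands cholesterol to it. NPC1 ran from 144 CPM to 209 CPM with a median of 187 CPM in control, and from 169 CPM to 217 CPM with a median of 187 CPM in exposed libraries. NPC2 ran from 54.2 CPM to 82.0 CPM with a median of 62.7 CPM in control, and from 51.8 CPM to 65.5 CPM with a median of 61.9 CPM in exposed libraries. Control 5 held the lowest NPC1 and the highest NPC2 of all 12 libraries, and it also held the lowest GRAMD1A and SCARB1. The log2 fold changes were 0.04 (95% interval −0.15 to 0.22) for NPC1 and −0.09 (−0.28 to 0.11) for NPC2. Without Control 5 they were −0.03 and −0.0082.

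SCARB1, the receptor that takes up cholesteryl ester from high-density lipoprotein, differed between the groups mainly through 3 exposed libraries. It ran from 137 CPM to 184 CPM with a median of 166 CPM in control, and from 144 CPM to 307 CPM with a median of 186 CPM in exposed libraries. Nanoplastics 1, 2 and 5, at 307, 221 and 196 CPM, lay above every control library, and the other 3 exposed libraries lay within the control range. The control mean was 164 ± 16.01 CPM and the exposed mean 199 ± 60.02 CPM (SD, n = 6 each). The log2 fold change was 0.29 (95% interval −0.03 to 0.60), with 4 of 6 exposed libraries above the control median, an unadjusted p of 0.0767 and an adjusted p of 0.999 in edgeR's test. Without Nanoplastics 1 the log2 fold change was 0.12, and with the mean of the oxygen response genes as a covariate it was 0.13.

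The oxygen response genes, a list of 17 with the angiogenic factor VEGFA as its most abundant gene, were high in the same libraries. This list was a covariate that had differed between libraries in an earlier analysis of these data. Of the 17, 16 had positive log2 fold changes (median 0.45, 0 called), where 50.5% of all tested genes were positive. The mean log2 CPM of the list was 7.98 in Nanoplastics 1, 7.60 in Nanoplastics 5 and 7.53 in Nanoplastics 2. It was 5.85 to 7.42 in control libraries and 6.18 to 6.44 in the other exposed libraries. The 6 red blood cell markers, of which HBA made up most, had their highest sums in these 3 libraries too, at 354, 138 and 240 CPM in Nanoplastics 1, 5 and 2, against 2.46 to 104 CPM in control libraries. The defining markers HBB and SLC4A1 were at 0 in every library. The part of either list in the level of SCARB1 was not tested beyond the covariate above and the correlation below.

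ABCA1 and ABCG1, transporters that export cholesterol and that are induced by sterols through the liver X receptors, were at the bottom of the measured range. ABCA1 had 6 to 35 counts per library. Its level ran from 0.363 CPM to 1.26 CPM in control and from 0.475 CPM to 1.96 CPM in exposed libraries. The highest value was that of Nanoplastics 5, which also had the highest sum of leukocyte and macrophage markers (19.2 CPM). Control 1 had the highest ABCA1 of the control libraries and the lowest such sum of all 12 libraries (5.34 CPM). The part of such cells in ABCA1 was not tested. The log2 fold change of 0.32 had a wide interval (95% interval −0.44 to 1.09), and it was 0.02 without Nanoplastics 5. ABCG1 had 10 counts over all 12 libraries and at most 2 in any of them, below the floor of 3 counts per library, so no fold is given. A difference in ABCG1 was not detectable at this depth.

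**Figure D2:**
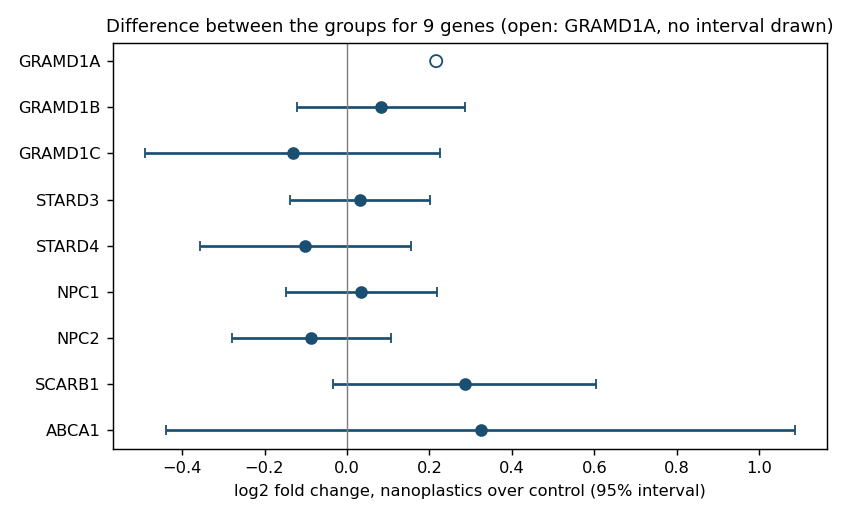
Log2 fold change of nanoplastics over control (horizontal axis) for the 9 tested members, with the 95% interval of the edgeR fit for the 8 other than GRAMD1A (open point). These 8 intervals include 0, and the widest are those of ABCA1 and GRAMD1C.

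Members differed in how much they varied between libraries of the same group. After removal of the group means, GRAMD1C had an SD of 0.33 and SCARB1 one of 0.30 on the log2 CPM scale. The 500 genes closest to each in mean level had median SDs of 0.21 and 0.12. The other tested members apart from ABCA1 had SDs of 0.11 to 0.17, and ABCA1 had one of 0.61 where genes of its level had 0.50. The coefficient of variation of SCARB1 was 9.78% in control and 30.1% in exposed libraries, and that of GRAMD1C was 12.7% and 28.7%. Whether these spreads differ between the groups was not tested.

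GRAMD1C and SCARB1 varied in opposite directions. In exposed libraries the order of SCARB1 from high to low ran through replicates 1, 2, 5, 4, 3 and 6, and that of GRAMD1C from low to high ran through 1, 2, 5, 4, 3 and 6 as well. Nanoplastics 1, 2 and 5 were also the highest of the 12 libraries on principal component 1, at 37.4, 21.0 and 17.6. That component held 33.7% of the variance. Whether the 2 genes vary together apart from it was not tested. Over 12 libraries, with each group's mean removed, Pearson's r was −0.92 (permutation p = 2.4e-04, adjusted p = 0.0130) and Spearman's rho −0.88 (permutation p = 0.00179, adjusted p = 0.0967). The adjustment covered 54 relations, namely 36 pairs of members and each member with the mean of the oxygen response genes and of the oocyte markers. This was the relation that passed by r, and 0 passed by rho. Within control libraries r was −0.69 and within exposed libraries −0.95. Without Nanoplastics 1 and 6, the libraries farthest from the median of GRAMD1C, r was −0.78. With the oxygen response mean regressed out, an alternative chosen after the data were seen, it was −0.88. With each library left out in turn r ran from −0.94 to −0.85. The number of relations past the adjustment fell to 0 without Control 5 and without each of Nanoplastics 1, 2, 3, 4 and 6.

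**Figure D3:**
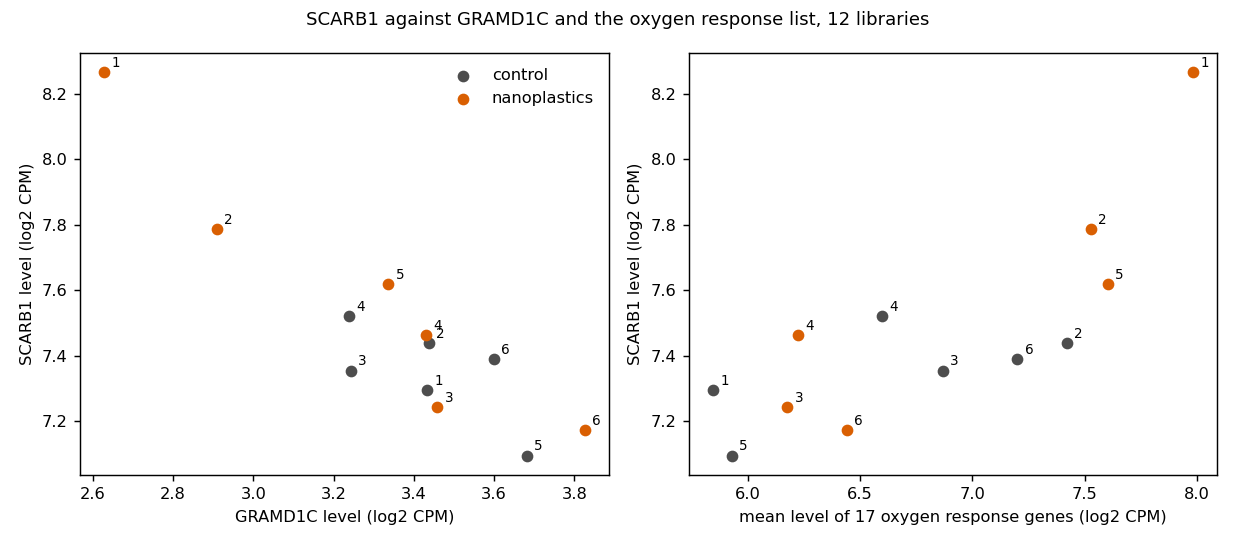
Level of SCARB1 (log2 CPM, vertical axes) in 12 libraries against the level of GRAMD1C (left) and the mean level of 17 oxygen response genes (right), with points numbered by replicate and coloured by group. Nanoplastics 1 and 2 combined the highest SCARB1 with the lowest GRAMD1C, and the 3 libraries with the highest oxygen response mean had the 3 highest SCARB1 levels.

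No other relation passed the adjustment by permutation tests of r. SCARB1 with the oxygen response mean had r = 0.78 and rho = 0.76 (permutation p = 0.00283, adjusted p = 0.0764 for r, and adjusted p = 0.335 for rho). Its r was 0.65 in control and 0.87 in exposed libraries, and 0.76 without Nanoplastics 1 and 6. GRAMD1C with the same mean had r = −0.62 (rho = −0.52, permutation adjusted p = 0.323). GRAMD1C with NPC1 had r = −0.63 (rho = −0.57, permutation p = 0.0140, adjusted p = 0.218), and r was −0.45 without Nanoplastics 1 and 6. NPC1 with NPC2 had r = −0.74 (rho = −0.69, permutation p = 0.0255, adjusted p = 0.275), and r was −0.51 without Control 5 and Nanoplastics 1. NPC1 with SCARB1 had r = 0.61 (rho = 0.55, permutation adjusted p = 0.218), and r was 0.37 without the same libraries. With the mean of the oocyte markers, GRAMD1B had r = 0.64 (rho = 0.49, permutation p = 0.0340, adjusted p = 0.288) and STARD3 had r = −0.65 (rho = −0.58, permutation p = 0.0373, adjusted p = 0.288). Without the libraries farthest from the median of each gene, r was 0.46 for GRAMD1B and −0.42 for STARD3. The other 7 tested members had r between −0.15 and 0.46 with that mean. In all, 7 of the 54 relations had an unadjusted p under 0.05 by r.

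No relation of GRAMD1A with another member passed the adjustment. Its r with the 8 other tested members ran from −0.47 with NPC2 to 0.60 with STARD4 (rho = 0.55, permutation p = 0.0599, adjusted p = 0.323 for STARD4). Without Control 4 and Control 5, the libraries farthest from the median of GRAMD1A, r with STARD4 was 0.37, and 5 of the 8 values of r changed sign. In 6 of the 8, r had opposite signs in the groups. With STARD4, r was 0.61 in control and 0.60 in exposed libraries. It ran from 0.43 to 0.73 with each library left out in turn, and was 0.13 without centring within groups. Over all 36 pairs of members 17 values of r were positive and the median was −0.02. Without batch labels, none of these values could be computed within a batch of material.

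**Figure D4:**
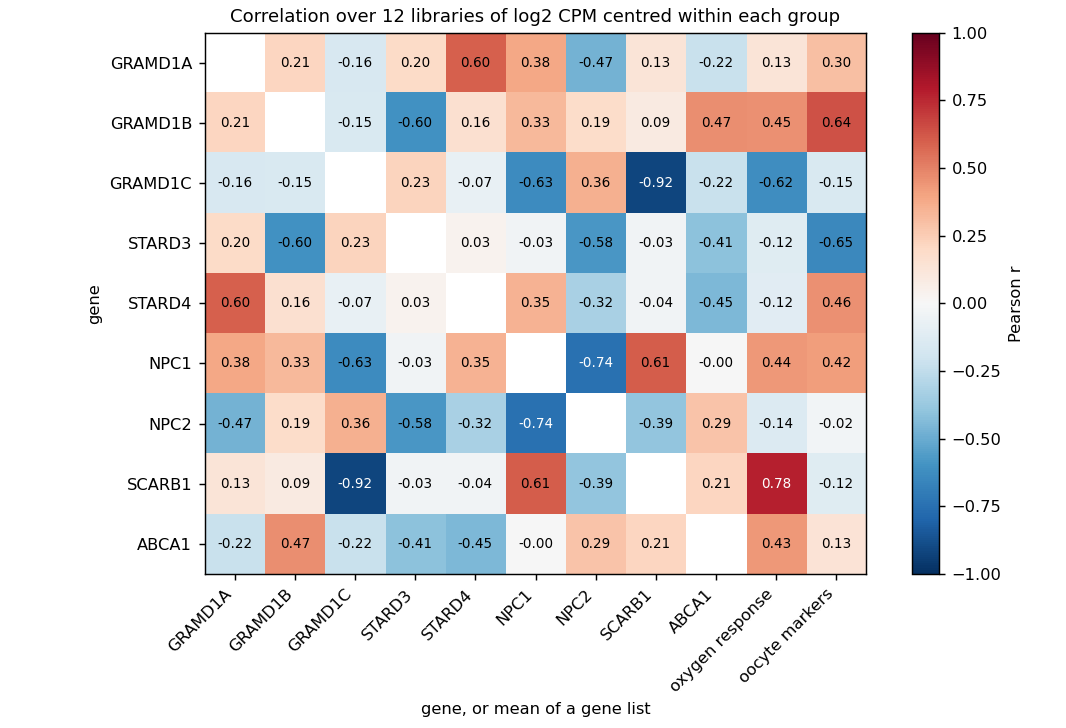
Pearson's r over 12 libraries of log2 CPM centred within each group, for the 9 tested members (rows) against each other and against the mean of the oxygen response genes and of the oocyte markers (last columns). The darkest cell is GRAMD1C with SCARB1 at −0.92, and the other values lie between −0.74 and 0.78.

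The genes most like GRAMD1A across libraries were sought among 8865 genes with a mean of at least 10 CPM, by Pearson's r over 12 libraries of log2 CPM with group means removed. The 5 highest were CRYL1 (0.89), the heme synthesis enzyme CPOX (0.89), the tyrosylprotein sulfotransferase TPST2 (0.89), FASTK (0.88) and HIP1R, a clathrin adaptor (0.87). The 5 lowest were THUMPD1 (−0.88), SGCB, a sarcoglycan (−0.88), the kinase TAOK3 (−0.87), TNRC6A, a protein of microRNA silencing (−0.86), and PHF6 (−0.85). These values are extremes picked from many genes, and they are a description. An r above 0.8 was held by 0.293% and one below −0.8 by 0.192% of the genes searched. None of the 10 was on a list of cholesterol genes used here. These lists hold a small part of the 8865 genes searched, so the absence of 10 genes from them says little. The log2 fold changes of the 10 genes between the groups ran from −0.16 for THUMPD1 to 0.06 for FASTK, below the 0.22 of GRAMD1A.

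Genes of the same pathway outside the 10 members were taken from 8 lists, in which TMEM97, APOE, MYLIP and STAR each appear 2 times. None passed in either direction in edgeR's test at the adjusted threshold, which 0% of all genes passed. Other sterol transfer proteins had 16 of 18 listed genes tested, of which 6 were positive and 10 negative in log2 fold change (median −0.02). The most abundant by CPM, ACBD3, had 0.02 (95% interval −0.14 to 0.17), and OSBPL1A, an oxysterol-binding protein relative, had −0.07 (−0.18 to 0.04). Lysosomal cholesterol release had 11 of 12 tested, of which 8 were positive and 3 negative (median 0.02), with the lysosomal membrane protein LAMP1 at 0.04 (−0.11 to 0.18) and the late endosomal GTPase RAB7A at 0.11 (−0.02 to 0.25). Endoplasmic reticulum contact site proteins had 20 of 23 tested, with 12 positive and 8 negative (median 0.02). The lipid kinase PI4KA stood at −0.04 (−0.19 to 0.11) and the calcium channel ORAI1 at −0.19 (−0.50 to 0.11).

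Lipoprotein uptake genes had 12 of 14 tested, with 6 positive and 6 negative (median −0.0028). MYLIP, a sterol-induced ubiquitin ligase, averaged 41.5 ± 4.29 CPM in the control group and 49.3 ± 5.20 CPM in the exposed group (SD, n = 6 each), with 5 of 6 exposed libraries above the control median. Its log2 fold change was 0.25 (95% interval 0.07 to 0.43), with an unadjusted p of 0.010 and an adjusted p of 0.999 in edgeR's test. MYLIP was the single gene of these lists with an unadjusted p under 0.05, a level that 1.07% of all tested genes reached with a positive fold change.

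The sterol efflux list, which also holds MYLIP, had 11 of 15 tested, with 7 positive and 4 negative (median 0.04), and the apolipoprotein APOE had 0.11 (95% interval −0.09 to 0.30). Cholesterol ester genes had 5 of 7 tested, with 3 positive and 2 negative (median 0.01). Their most abundant member PLIN2, a lipid droplet coat protein, stood at 0.01 (−0.13 to 0.15), and LCAT, which esterifies cholesterol in plasma lipoproteins, at 0.28 (−0.03 to 0.58). All 28 listed genes of sterol sensing and SREBP2 targets were tested, and 10 were positive and 18 negative (median −0.01). TMEM97, a binding partner of NPC1, had −0.06 (−0.17 to 0.06). Steroid output genes had 7 of 8 tested, with 3 positive and 4 negative (median −0.02), with the side-chain cleavage enzyme CYP11A1 at 0.08 (−0.24 to 0.40) and the estradiol-forming enzyme HSD17B1 at 0.32 (−0.20 to 0.84).

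**Figure D5:**
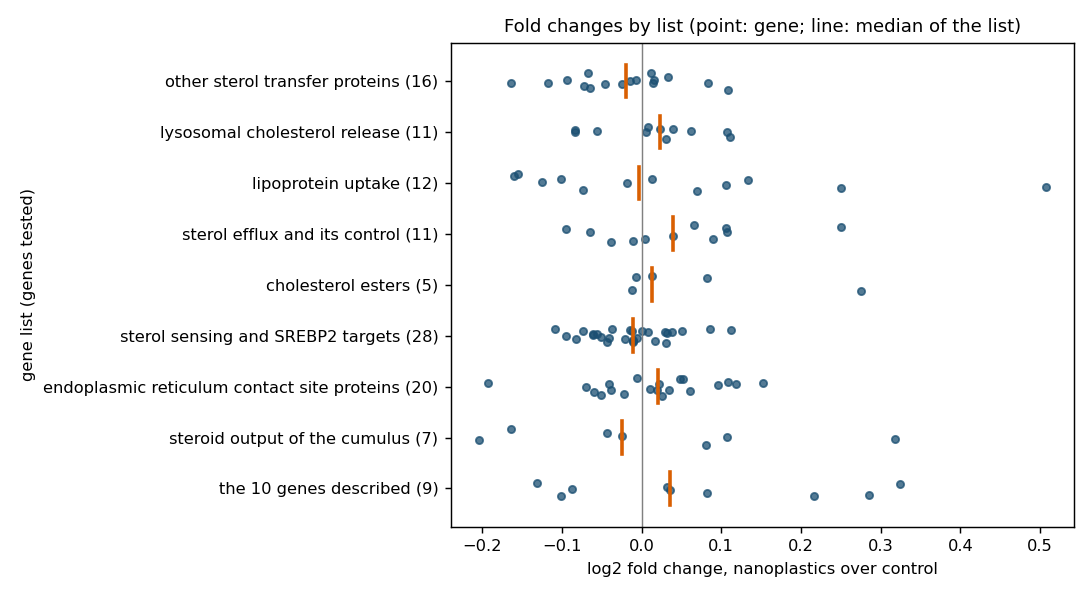
Log2 fold change of nanoplastics over control (horizontal axis) of every tested gene in 8 lists of cholesterol genes and of the 9 tested members (bottom row), with the median of each list as a line. The list medians lie between −0.02 and 0.04, and GRAMD1A at 0.22 was exceeded among the members by SCARB1 (0.29) and ABCA1 (0.32).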

How the data were processed

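Polyadenylated RNA of groups of 50 complexes was read from both ends at 150 bases, per the labels' protocols. The submitters' processing notes name the tools Trim Galore 0.4.5, STAR 2.5.4b and DESeq2. Counter, strand setting, genome build and annotation were not stated there, so no coordinates are printed and overlapping or antisense genes may share reads. No sequences or transcript lengths were used, and levels are compared within a gene, not between genes.

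The deposited count table held raw counts per gene. The deposited log2 table held log2 counts that the authors scaled by a constant per library (its range over genes was at most 2.06e-06). The authors' deposited contrast table held p-values, log2 fold changes and, as a signal per group, the mean raw count, and 4 columns of other groups in it were not used.

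Of 18057 rows, 74 exact copies were dropped. A filter (edgeR filterByExpr, minimum count 10, minimum total 15) was followed by TMM normalisation and edgeR 4.0.16 (glmQLFit, glmQLFTest, two-sided, threshold 0.05) over 12 libraries in R 4.3.3. Log2 CPM used a prior count of 2, and errors and intervals are those of the fit. Correlations used 100000 permutations within groups, and p-values were adjusted over 54 relations. On simulated counts for 12311 genes, with 200 changed, the test recovered 20% of genes changed 1.25-fold, 78% at 1.5-fold and 94% at 2-fold. It made 9 false calls among 12111 unchanged genes. The simulation drew each gene independently around a flat mean per group, without the differences between libraries that many genes share. Its rates hold for that setting and may not hold for these data.

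The members and lists were chosen with earlier results of these data known. Named list genes are the most abundant and the gene of smallest p in each list (not every gene so named is reported here), and the genes like GRAMD1A are the 5 of highest and 5 of lowest r. Replicate numbers were not used to pair the samples in the main fit, since the sources used here do not tie a sample to its batch. Any pair of libraries of a group differed beyond counting noise (chi-square over its degrees of freedom at least 5.64). The edgeR p-values set the difference between the groups against the spread between these samples, over batches that the labels do not separate. Those of the correlations come from permutation within groups, which takes no account of batch. Whether libraries of a batch resemble each other could not be checked. Alternatives covered normalisation, filter, DESeq2 1.42.0, limma 3.58.1 (voom), sva 3.50.0, the replicate block and left-out libraries.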

Additional observations from a re-analysis of the deposited data

How the results depend on the processing

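Under every alternative run (normalisation, filter, test, block, surrogate variable, covariate and left-out libraries) 0 genes, 0 members and 0 list genes passed the adjusted threshold. Genes at an unadjusted p under 0.05 numbered 259, and 141 (without Nanoplastics 1) to 482 (without Nanoplastics 4) with a library left out. GRAMD1B, GRAMD1C, STARD4, NPC2, SCARB1 and ABCA1 kept their sign in all alternatives in which they were tested. GRAMD1A did so too, which is a description only, since its choice for a consistent shift in these counts made it likely. With the replicate number as a block the log2 fold change of GRAMD1A was 0.22 and that of SCARB1 0.24. The block changed no call, and same-numbered libraries had correlations of deviations over 0.1 in 2 of 6 pairs. These values cannot settle whether same-numbered libraries shared a batch, since other differences between libraries also enter them. With 1 surrogate variable SCARB1 was 0.11 and GRAMD1C −0.04. Summing the rows of a symbol changed nothing, since each member had 1 row.

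Log2 fold changes near 0 changed sign, and the cause was not tested. On total counts STARD3 was −0.000408, ACBD3 −0.0230 and PLIN2 −0.0193. With a surrogate variable NPC1 was −0.000541, ACBD3 −0.0292 and LAMP1 −0.00676. ACBD3 was −0.0187 with the oxygen response covariate and −0.00367 without Nanoplastics 2 and 6. With a library left out STARD3 ran from −0.0154 to 0.0846, NPC1 from −0.0299 to 0.0752, ACBD3 from −0.0194 to 0.0495, PLIN2 from −0.0391 to 0.0356, PI4KA from −0.0786 to 0.0072 and CYP11A1 from −0.00199 to 0.147.

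Relations past the adjustment numbered 1, and 2 without centring within groups, when SCARB1 with the oxygen response mean (r = 0.79, permutation adjusted p = 0.0157) was the other. They numbered 0 to 2 with a library left out. GRAMD1C with SCARB1 had r between −0.94 and −0.78 in all alternatives run. The covariate, the pair of left-out libraries and the regressed correlations were chosen after the data were seen. Depth limits ABCG1 and ABCA1.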

Other observations

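VLDLR, a receptor of very-low-density lipoprotein, varied more between libraries than the other uptake genes and is named here after its values were seen. It averaged 36.7 ± 17.1 CPM in the control group and 52.2 ± 34.5 CPM in the exposed group (SD, n = 6 each), with a log2 fold change of 0.51 (SE 0.39). The esterifying enzyme SOAT1 averaged 157 ± 10.5 CPM in the control group and 156 ± 9.83 CPM in the exposed group (SD, n = 6 each), while its relative SOAT2 was at 0 in every library. Among 18 groups of member values, no library stood apart from the other 5 of its group by the ratio of gap to range, where chance sets apart about 1 in 20.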
